A study of Mus musculus with 6 samples.

Results

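The 10 genes described here encode amino acid transporters of the plasma membrane: Slc7a5, Slc3a2, Slc7a1, Slc7a2, Slc7a6, Slc38a1, Slc38a2, Slc38a3, Slc1a5 and Slc6a6. They were taken by symbol from a table of 46450 genes, and all 10 were found. Transcripts were measured by RNA sequencing of cardiomyocytes, the contractile cells of the heart, isolated from excised hearts of C57BL/6 mice aged 3 months. The groups were 3 wild-type libraries and 3 TFEB-/- libraries. TFEB is a transcription factor whose classical targets are lysosomal and autophagy genes. The promoter or cell type in which the allele was deleted, the sex of the mice and whether the libraries come from different animals are not given in the sources used here, so the p-values measure the spread between these libraries, which may be technical. The comparison asks how the transcripts differ with the genotype.

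Amino acids enter and leave cells through carriers that differ in cargo and driving force. Some exchange 1 amino acid for another, and others use the sodium gradient to concentrate their cargo. In heart muscle they supply glutamine and branched-chain amino acids, arginine for nitric oxide, and taurine, which the heart stores at high level. Imported leucine and arginine are also signals to mTORC1, the kinase complex that phosphorylates TFEB and holds it in the cytoplasm.

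The deposited values are whole numbers read here as CPM, after the table's name (counts scaled so that every library has the same total), with sums of 999505 to 999655. The number of reads behind a value is unknown, and rounding moves each value by up to 0.5 CPM. Tfeb measured 17, 30 and 23 CPM in wild-type libraries 1, 2 and 3 and 6, 5 and 7 CPM in TFEB-/- libraries 1, 2 and 3, without overlap (log2 fold change −1.85 with an SE of 0.24, adjusted p = 0.0267). The cardiomyocyte markers Myh6 and Actc1, a heavy chain of myosin and cardiac actin, were abundant in every library, from 18996 to 33390 CPM and from 8734 to 13913 CPM. Transcripts of the mitochondrial genome took up 30.7, 33.9 and 44.6% in wild type and 22.2, 30.3 and 25.3% in TFEB-/- (a difference of −10.5 points, exact two-sided permutation p = 0.1, the smallest that 3 against 3 allow). In a table with a fixed sum this share moves with every other value, and the median log2 fold change of the 12437 genes tested was 0.24. Each member is therefore also given relative to that median and with median-ratio scaling, where the median was 0.01. This scaling divides each library by its median ratio to the geometric mean of all libraries, over genes detected in every library. Errors after ± are SD over n = 3 libraries, fold changes are TFEB-/- over wild type on log2(CPM + 0.5), and adjusted p-values are from limma with a threshold of 0.05. At that threshold Tfeb was no longer called without wild type 2 or 3 (limma adjusted p = 0.0589 and 0.109). The same held without TFEB-/- 1, 2 or 3 (limma adjusted p = 0.0991, 0.0694 and 0.085), while Tfeb passed without wild type 1 (0.0256). With 1 library left out the log2 fold change of Tfeb ran from −2.05 to −1.65.

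In TFEB-/- cardiomyocytes Slc7a5, a carrier of large neutral amino acids, and Slc1a5, a sodium-dependent exchanger of small neutral amino acids and glutamine, were higher on the deposited scale, 2.29-fold and 1.58-fold as ratios of the mean CPM. Both calls were lost without wild type 1, 2 or 3, and that of Slc1a5 also with median-ratio scaling. The arginine and lysine carrier Slc7a1 and the taurine carrier Slc6a6 had ratios of 2.54 and 2.32 but did not pass the threshold. The most abundant of the 10 on the deposited scale, the glutamine and alanine carrier Slc38a2, had a ratio of 0.834, and its groups overlapped. All 10 genes passed the filter of at least 1 CPM in at least 3 libraries. Of these, 2 were higher and 0 lower in limma, against 3.92% of all tested genes called higher and 0.523% called lower. An unadjusted p below 0.05 was found for 5 members, all of them higher, against 23.3% of all tested genes in either direction. The TFEB-/- libraries all lay above the wild-type libraries for 6 of the 10 and below them for 0, against 21.2% and 2.28% of all tested genes. The median log2 fold change of the 10 was 0.70, and 9 of the 10 lay above the median of all genes.

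**Figure D1:**
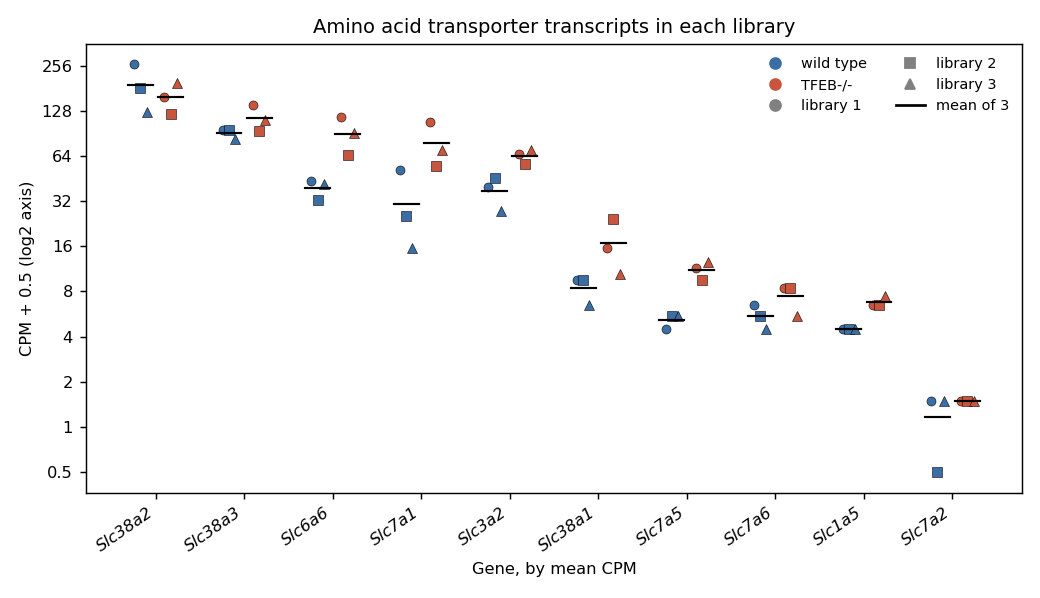
Value of each transporter gene in each library, as CPM + 0.5 on a log2 axis, with genes ordered by mean CPM. Blue symbols are wild-type and red symbols TFEB-/- libraries, the symbol shape gives the library number, which pairs no samples, and black bars are means of 3. For Slc6a6, Slc7a1, Slc3a2, Slc38a1, Slc7a5 and Slc1a5 every red symbol lies above every blue one, while Slc38a2 and Slc38a3 overlap.

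Slc7a5 and Slc3a2 form 1 transporter. Slc7a5 (LAT1) is the light chain that carries leucine, other large neutral amino acids and thyroid hormone by exchange, and Slc3a2 (CD98, 4F2hc) is the heavy chain that several light chains need to reach the cell surface. Slc7a5 (ENSMUSG00000040010; GRCm38 chromosome 8, 121881150 to 121907694, minus strand) measured 4, 5 and 5 CPM in the wild-type libraries and 11, 9 and 12 CPM in the TFEB-/- libraries. The lowest TFEB-/- library was thus above the highest wild-type library by more than the range within either group. Wild type averaged 4.67 ± 0.577 CPM and TFEB-/- 10.7 ± 1.53 CPM (log2 fold change 1.11 with an SE of 0.14, adjusted p = 0.026), which is 0.87 above the median of all genes. With median-ratio scaling Slc7a5 was at 3.93, 5.35 and 6.12 in wild type and at 9.29, 8.85 and 11.3 in TFEB-/- (log2 fold change 0.88, adjusted p = 0.0364). The call was lost without wild type 1, 2 or 3 (adjusted p = 0.0549, 0.0851 and 0.0895) and without TFEB-/- 1 or 3 (adjusted p = 0.0987 and 0.088), and Slc7a5 passed in 10 of 16 alternatives, whose adjusted p ran from 0.00564 to 0.105.

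Slc3a2 (ENSMUSG00000010095; chromosome 19, 8706882 to 8723369, minus strand) measured 39, 45 and 27 CPM in the wild-type libraries and 65, 56 and 70 CPM in the TFEB-/- libraries. The groups did not overlap, and wild type 3, the library with the highest mitochondrial share, was lowest. Wild type averaged 37.0 ± 9.17 CPM and TFEB-/- 63.7 ± 7.09 CPM, and the log2 fold change of 0.80 (SE 0.22) did not pass the threshold (adjusted p = 0.12, and 0.0858 with median-ratio scaling). Slc3a2 passed in 3 of 16 alternatives: the filter of 5 CPM (adjusted p = 0.0413), robust hyperparameters (0.0346) and array weights (0.045), within a range of 0.0346 to 0.313. The ratio of Slc7a5 to Slc3a2 within a library, which no scaling between libraries can move, was 0.103, 0.111 and 0.185 in wild type and 0.169, 0.161 and 0.171 in TFEB-/-. The ratios overlapped between the groups (exact two-sided permutation p = 0.4).

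Among the carriers of cationic amino acids, Slc7a1 (CAT-1) takes up arginine, lysine and ornithine in many cell types, Slc7a2 (CAT-2) encodes a related carrier, and Slc7a6 (y+LAT2) is a light chain of Slc3a2 that exchanges cationic for neutral amino acids. Slc7a1 (ENSMUSG00000041313; chromosome 5, 148327410 to 148399904, minus strand) measured 51, 25 and 15 CPM in the wild-type libraries and 107, 54 and 70 CPM in the TFEB-/- libraries. The groups did not overlap, but wild type 1 and TFEB-/- 2 lay close together and the wild-type values were far apart. Wild type averaged 30.3 ± 18.6 CPM and TFEB-/- 77.0 ± 27.2 CPM, with the largest positive log2 fold change of the 10 and a wide error (1.45, SE 0.52, 95% confidence interval 0.09 to 2.81, adjusted p = 0.194). With median-ratio scaling the wild-type libraries still ran from 18.4 to 50.1 and the TFEB-/- libraries from 53.1 to 90.4 (log2 fold change 1.21, adjusted p = 0.106). Slc7a1 passed in 1 of 16 alternatives, array weights (adjusted p = 0.0363, range 0.0363 to 0.463).

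Slc7a6 (ENSMUSG00000031904; chromosome 8, 106168857 to 106198706, plus strand) measured 6, 5 and 4 CPM in the wild-type libraries and 8, 8 and 5 CPM in the TFEB-/- libraries. TFEB-/- 3 fell within the wild-type range, and the log2 fold change was 0.43 (95% confidence interval −0.18 to 1.05, adjusted p = 0.315). Slc7a2 (ENSMUSG00000031596; chromosome 8, 40862396 to 40922308, plus strand) measured 1, 0 and 1 CPM in the wild-type libraries and 1 CPM in each TFEB-/- library, values at the limit that rounding allows. Its fold change cannot be read from such values, since rounding alone allows a ratio of the means from 0.429 to 4.5.

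The promoter table of RefSeq (build GRCm38.p6) held 4 of the 10 members: Slc7a1, Slc7a6, Slc38a2 and Slc3a2. Shown are 200 bases, from −250 to −51 relative to a transcript start, for Slc7a1, with the largest positive fold change, and Slc38a2, with the one negative fold change, so that the starts of members with opposite signs can be set side by side. Slc7a1 is chr5:148399955-148400154 and Slc38a2 is chr15:96699779-96699978, both on the minus strand, and capitals mark a match to TGACTCA, the site of the stress-responsive AP-1 factors.
Slc7a1: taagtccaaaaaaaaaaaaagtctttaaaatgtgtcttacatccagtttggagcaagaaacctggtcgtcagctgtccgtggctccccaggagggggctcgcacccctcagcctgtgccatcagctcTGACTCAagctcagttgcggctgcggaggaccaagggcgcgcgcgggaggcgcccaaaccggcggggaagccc
Slc38a2: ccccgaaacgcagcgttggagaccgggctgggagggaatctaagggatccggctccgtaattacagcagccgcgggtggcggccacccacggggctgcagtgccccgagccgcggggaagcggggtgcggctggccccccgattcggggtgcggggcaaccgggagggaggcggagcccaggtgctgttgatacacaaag
In windows of 300 bases (250 before and 50 after the start, both strands), CACGTG, the core of the CLEAR element that TFEB binds, was found in 0 of the 6 windows of these 4 genes, against 7.15% of all 32851 windows in the table. TGATGNAAT, 1 form of the composite site of ATF4 and C/EBP factors, was likewise found in 0 of the 6, against 0.965% of all windows. Other forms of that site, and sequence outside these windows such as introns further downstream, were not searched. TGACTCA was found once, at position −123 of Slc7a1, against 5.2% of all windows. TGACTCA was chosen after the sequences were seen, the motifs do not overlap in these windows, and no match says only that these letters are not there.

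Slc38a1, Slc38a2 and Slc38a3 belong to the sodium-coupled neutral amino acid transporter family. Slc38a1 (SNAT1) and Slc38a2 (SNAT2) carry system A transport of glutamine, alanine and other small neutral amino acids, and Slc38a2 is known as the form that rises when cells lack amino acids or shrink. Slc38a3 (SNAT3) carries system N transport of glutamine and histidine. Slc38a2 (ENSMUSG00000022462; chromosome 15, 96687392 to 96699730, minus strand) measured 260, 181 and 125 CPM in the wild-type libraries and 157, 121 and 194 CPM in the TFEB-/- libraries. Wild type 1 was highest and the other wild-type libraries lay inside the TFEB-/- range. Wild type averaged 188.7 ± 67.8 CPM and TFEB-/- 157.3 ± 36.5 CPM (log2 fold change −0.22, 95% confidence interval −1.08 to 0.63, adjusted p = 0.683), and without wild type 1 the log2 fold change was 0.038. With median-ratio scaling it was −0.46 (95% confidence interval −0.99 to 0.06, adjusted p = 0.275).

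Slc38a3 (ENSMUSG00000010064; chromosome 9, 107650634 to 107669530, minus strand) measured 95, 94 and 83 CPM in the wild-type libraries and 140, 93 and 111 CPM in the TFEB-/- libraries. TFEB-/- 2 lay among the wild-type libraries, which were close together. The log2 fold change was 0.32 (95% confidence interval −0.12 to 0.76, adjusted p = 0.297), or 0.08 above the median of all genes. Slc38a1 (ENSMUSG00000023169; chromosome 15, 96571418 to 96642913, minus strand) measured 9, 9 and 6 CPM in the wild-type libraries and 15, 24 and 10 CPM in the TFEB-/- libraries. The groups were apart by 1 CPM on the deposited scale and overlapped with median-ratio scaling, where wild type 2 was at 9.63 and TFEB-/- 3 at 9.41. The log2 fold change of 0.92 (SE 0.36) did not pass the threshold (adjusted p = 0.219).

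The balance of the 2 system A transcripts was compared within each library. The ratio of Slc38a1 to Slc38a2 was 0.0346, 0.0497 and 0.048 in wild type and 0.0955, 0.198 and 0.0515 in TFEB-/-. Every TFEB-/- ratio was above every wild-type ratio (exact two-sided permutation p = 0.1, the smallest possible, with 4 ratios tested in all). But TFEB-/- 3 was so close to wild type 2 that rounding of the CPM values alone could reverse their order. The ratio of Slc38a3 to Slc38a2 was 0.516 ± 0.149 in wild type and 0.744 ± 0.161 in TFEB-/- (exact permutation p = 0.2), and that of Slc7a1 to Slc7a6 was 5.75 ± 2.46 and 11.4 ± 4.02 (exact permutation p = 0.2). Both of these overlapped between the groups.

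Slc1a5 (ASCT2; ENSMUSG00000001918; chromosome 7, 16781340 to 16798274, plus strand) measured 4 CPM in each wild-type library and 6, 6 and 7 CPM in TFEB-/-. The groups did not overlap, but the step between them was 2 CPM and the identical wild-type values are rounded ones. Wild type averaged 4 CPM and TFEB-/- 6.33 ± 0.577 CPM (log2 fold change 0.60 with an SE of 0.08, adjusted p = 0.0238), and rounding alone allows a ratio of the means from 1.3 to 1.95. With median-ratio scaling Slc1a5 was at 3.93, 4.28 and 4.89 in wild type and at 5.07, 5.9 and 6.59 in TFEB-/-, and the call was lost (log2 fold change 0.38, SE 0.15, adjusted p = 0.19). It was also lost without wild type 1, 2 or 3 (adjusted p = 0.0606, 0.0861 and 0.09), and Slc1a5 passed in 8 of 16 alternatives, whose adjusted p ran from 0.00637 to 0.19.

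Slc6a6 (TauT; ENSMUSG00000030096; chromosome 6, 91684053 to 91759066, plus strand) imports taurine with sodium and chloride. It measured 43, 32 and 41 CPM in the wild-type libraries and 115, 64 and 90 CPM in the TFEB-/- libraries. Every TFEB-/- library was above every wild-type library, and TFEB-/- 2 came closest to wild type. Wild type averaged 38.7 ± 5.86 CPM and TFEB-/- 89.7 ± 25.5 CPM (log2 fold change 1.17 with an SE of 0.25, 95% confidence interval 0.52 to 1.83, adjusted p = 0.0793). With median-ratio scaling Slc6a6 passed the threshold, at 42.2 ± 7.96 and 81.6 ± 17.3 (log2 fold change 0.94, SE 0.20, adjusted p = 0.039). It passed in 4 of 16 alternatives, whose adjusted p ran from 0.0103 to 0.228.

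**Figure D2:**
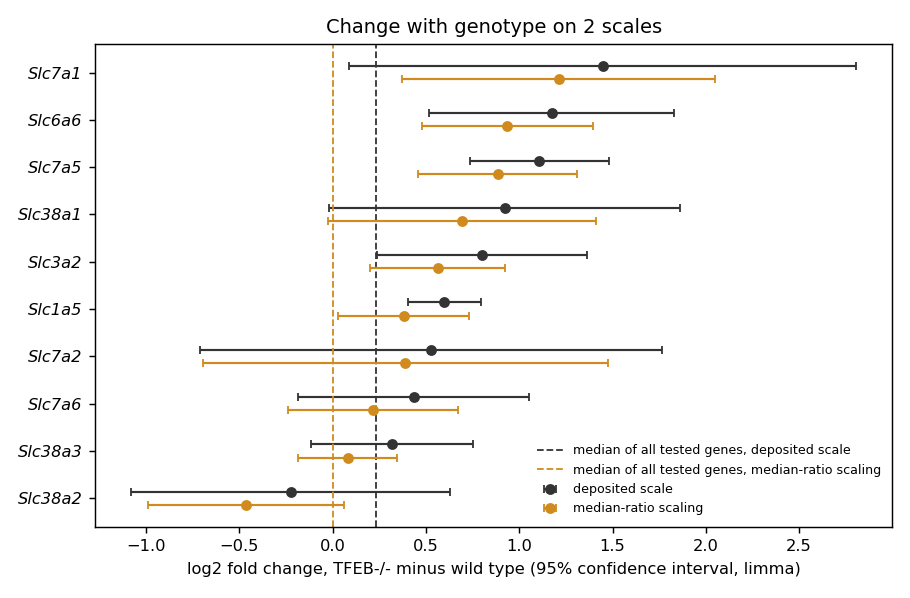
Log2 fold change of each transporter gene, TFEB-/- minus wild type, with its 95% confidence interval from limma, on the deposited scale (black) and with median-ratio scaling (orange). Dashed lines are the medians of all tested genes, 0.24 and 0.01. The intervals of Slc7a1, Slc6a6, Slc7a5, Slc3a2 and Slc1a5 lie above 0 on both scales, and Slc38a2 is the one gene with a negative estimate.

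With median-ratio scaling the count of members past the threshold was again 2 higher and 0 lower, against 3.87% and 1.61% of all tested genes, but Slc6a6 stood in the place of Slc1a5. Again 5 members had an unadjusted p below 0.05, all higher, against 22.3% of all tested genes in either direction. The groups did not overlap for 5 members, all higher, against 14.3% of all tested genes called so on that scale and 11.8% lower. The median of the 10 was 0.48, or 0.47 above the median of all genes, and on the deposited scale it was 0.46 above it. Slc38a2 had a negative estimate on both scales.

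**Figure D3:**
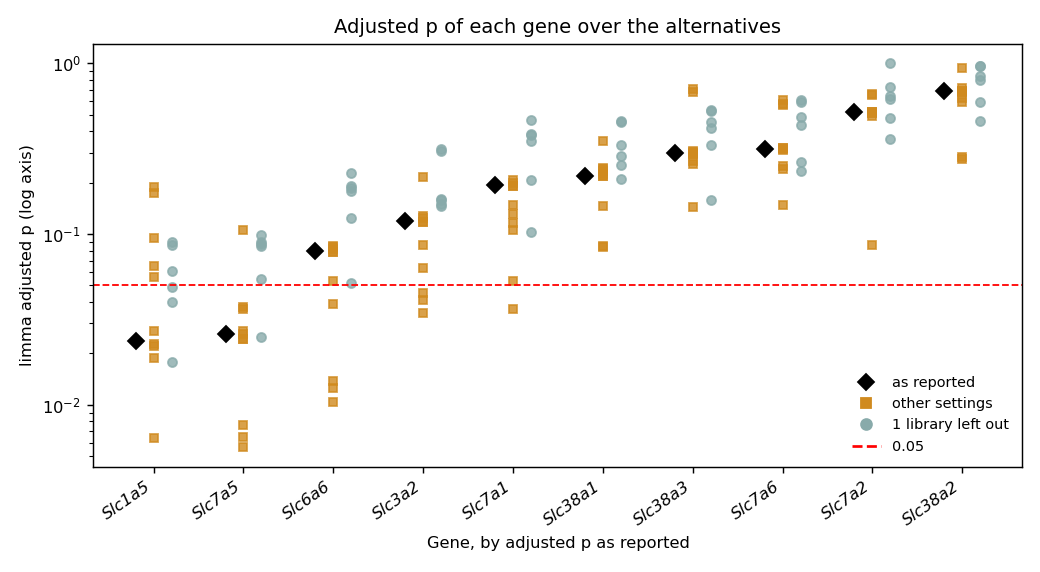
Adjusted p of each transporter gene as reported (black diamonds), under the 10 other settings (orange squares) and with 1 library left out (grey circles), on a log axis with the threshold of 0.05 as a dashed line. Symbols of Slc1a5, Slc7a5, Slc6a6, Slc3a2 and Slc7a1 fall on both sides of the line, and those of Slc38a1, Slc38a3, Slc7a6, Slc7a2 and Slc38a2 all lie above it.

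Levels of the 10 genes can be ordered only roughly, because scaling by transcript length is not stated for the deposited values and the annotated coding transcripts differ in length. Orders were compared on 3 scales: mean CPM, mean CPM per kilobase of the median coding transcript in GENCODE M21, and mean CPM per kilobase of the longest one. In wild type Slc38a2, Slc38a3, Slc6a6 and Slc3a2 held the first 4 places on all 3 scales, Slc7a1 the fifth and Slc7a2 the last. Within the first 4 the order changed with the scale. Slc38a2 was at 40.5 ± 14.6 CPM per kilobase with either length and Slc38a3 at 36.9 ± 2.71 with the median length, a pair that did not differ beyond its spread. Slc6a6 was at 62.0 CPM per kilobase with the median length and 6.25 with the longest, since most of its annotated coding transcripts are short. In TFEB-/- the same 5 genes held the first 5 places on all 3 scales.

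The sum of the 10 members was 512, 400 and 311 CPM in wild type and 625, 436 and 570 CPM in TFEB-/-, with wild type 1 above TFEB-/- 2. Slc38a2 made up 50.8, 45.2 and 40.2% of that sum in wild type and 25.1, 27.8 and 34% in TFEB-/-, so that its share was lower in all 3 TFEB-/- libraries.

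Slc1a5 had the smallest adjusted p among members that averaged at least 5 CPM, and the 5 genes whose log2(CPM + 0.5) was most like it were sought among 6552 genes that averaged at least 10 CPM. They were Trim47, Gltp, Dbndd2, Hist1h1c and Mapk12, with Pearson correlations over the 6 libraries of 0.987 to 0.995. These libraries share 2 genotypes, so the correlations describe a low and a high group. Trim47, a ubiquitin ligase of the tripartite motif family, measured 6, 7 and 7 CPM in the wild-type libraries and 25, 30 and 43 CPM in the TFEB-/- libraries.

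Of 36 other amino acid carriers of the plasma membrane, 16 were tested and 19 were at 0 in every library. On the deposited scale 3 of the 16 were higher and 0 lower in limma (7 with an unadjusted p below 0.05, all higher). Over all tested genes 3.92% were called higher, 0.523% lower, and 23.3% had an unadjusted p below 0.05 in either direction. The same shares apply to the lists below on that scale. The count of other carriers called higher was 0 without wild type 1, 2 or 3 or TFEB-/- 3 and 1 without TFEB-/- 1. Slc43a2 (LAT4), which releases branched-chain amino acids and phenylalanine, measured 14, 11 and 12 CPM in the wild-type libraries and 38, 25 and 28 CPM in the TFEB-/- libraries. The lowest TFEB-/- library was well above the highest wild-type one (log2 fold change 1.25, SE 0.19, adjusted p = 0.0384). Slc1a3, a glutamate carrier, was listed at 0 in all wild-type libraries and at 2, 1 and 1 CPM in TFEB-/-. It reached the filter only through its TFEB-/- libraries, so that it had to differ, and its call is no support for a rise of the list. Slc7a4, named to complete the count after its values were seen, was at 2, 3 and 2 CPM and at 8, 5 and 7 CPM (adjusted p = 0.0497). With median-ratio scaling Slc43a2, Slc7a4 and Slc38a4, a system A carrier, were higher, beside Slc1a3 with the same limit. Slc38a4 measured 7, 5 and 3 CPM in the wild-type libraries and 18, 13 and 13 CPM in the TFEB-/- libraries (adjusted p = 0.0777 on the deposited scale and 0.0177 with scaling). Slc38a6 was picked out for its abundance after its values were seen. It measured 148, 52 and 71 CPM in the wild-type libraries and 265, 223 and 178 CPM in the TFEB-/- libraries, without overlap and without passing (adjusted p = 0.149). The median log2 fold change of the 16, Slc1a3 included, was 0.59, beside 0.70 for the 10 members, 0.24 for all genes and 0.61 for 10 tested markers of macrophages and leukocytes.

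Carriers of amino acids and peptides in the lysosomal membrane gave 0 calls by limma among 8 tested and had a median of 0.32. An unadjusted p below 0.05 was found for 2 of them, both higher, against 23.3% of all tested genes in either direction. The most abundant were the SLC38 family member Slc38a7, at 12, 10 and 11 CPM in wild type and 18, 15 and 17 CPM in TFEB-/- (adjusted p = 0.0566), and Mfsd12, needed for cysteine to enter lysosomes, at 8 ± 1 and 16 ± 6.93 CPM (adjusted p = 0.183). Of 27 measured genes of leucine and arginine sensing up to and including mTORC1, 0 passed in limma on the deposited scale. Of these 27, 4 had an unadjusted p below 0.05, and the median was 0.12. Castor1, Castor2 and Samtor were not matched, and Slc38a9 was counted with the lysosomal carriers, so arginine sensing was covered only in part. The most abundant of the 27, Lamtor1 and Rragd, had log2 fold changes of 0.19 and 0.36. With median-ratio scaling Fnip2, a partner of folliculin, was lower (log2 fold change −0.89, adjusted p = 0.0282).

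Genes of the amino acid response are switched on by the factor ATF4 when amino acids run short. Known targets include Slc7a5, Slc3a2 and Slc7a1, whose TFEB-/- libraries all lay above the wild-type libraries, as did those of 21.2% of all tested genes. Of these 3 targets, Slc3a2 and Slc7a1 did not pass the threshold (limma adjusted p = 0.12 and 0.194). Slc38a2, described above as also rising when cells lack amino acids, was not higher (log2 fold change −0.22, and −0.46 with median-ratio scaling). The 25 listed genes of this response include Atf4 itself and the kinases Eif2ak1, Eif2ak2, Eif2ak3 and Eif2ak4, so the list does not hold ATF4-induced genes alone. Of the 25, 1 was higher and 0 lower (7 with an unadjusted p below 0.05, all higher). The count called higher was 3 without TFEB-/- 1 and 4 without TFEB-/- 2. With all libraries the call was the serine synthesis enzyme Psat1, at 1 CPM throughout wild type and 3 CPM throughout TFEB-/- (adjusted p = 4.3e-05, and 0.0156 with median-ratio scaling). The identical values within each group are rounded ones, so the small p understates their spread. Rounding alone allows a ratio of the means from 1.67 to 7. Atf4 itself measured 130, 116 and 92 CPM in the wild-type libraries and 154, 112 and 173 CPM in the TFEB-/- libraries, which overlapped (adjusted p = 0.35). With median-ratio scaling the mitochondrial PEP carboxykinase Pck2, at 3 CPM in each wild-type library and at 16, 7 and 11 CPM in TFEB-/-, was also higher (adjusted p = 0.0154). Asns, asparagine synthetase and a well-known target of ATF4, was at 2, 2 and 0 CPM and at 5, 1 and 1 CPM. The median of the 25 was 0.37.

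Among 14 tested enzymes of taurine, glutamine, arginine and the related proline, 2 were higher and 0 lower, with a median of 0.19. Of all tested genes 3.92% were called higher and 0.523% lower. The count called higher was 0 without wild type 1 or 3 or TFEB-/- 1 or 3, and 1 without wild type 2 or TFEB-/- 2. Prodh, the proline-degrading dehydrogenase, was at 26.7 ± 2.31 and 42.7 ± 3.21 CPM (adjusted p = 0.0334, and 0.188 with median-ratio scaling). Asl, argininosuccinate lyase, which releases arginine, was at 2, 3 and 2 CPM and at 6, 5 and 6 CPM (adjusted p = 0.0367, and 0.0318 with scaling). Csad, which makes the precursor of taurine, was at 4 CPM in each wild-type library and at 9, 5 and 9 CPM in TFEB-/- without passing (adjusted p = 0.142).

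**Figure D4:**
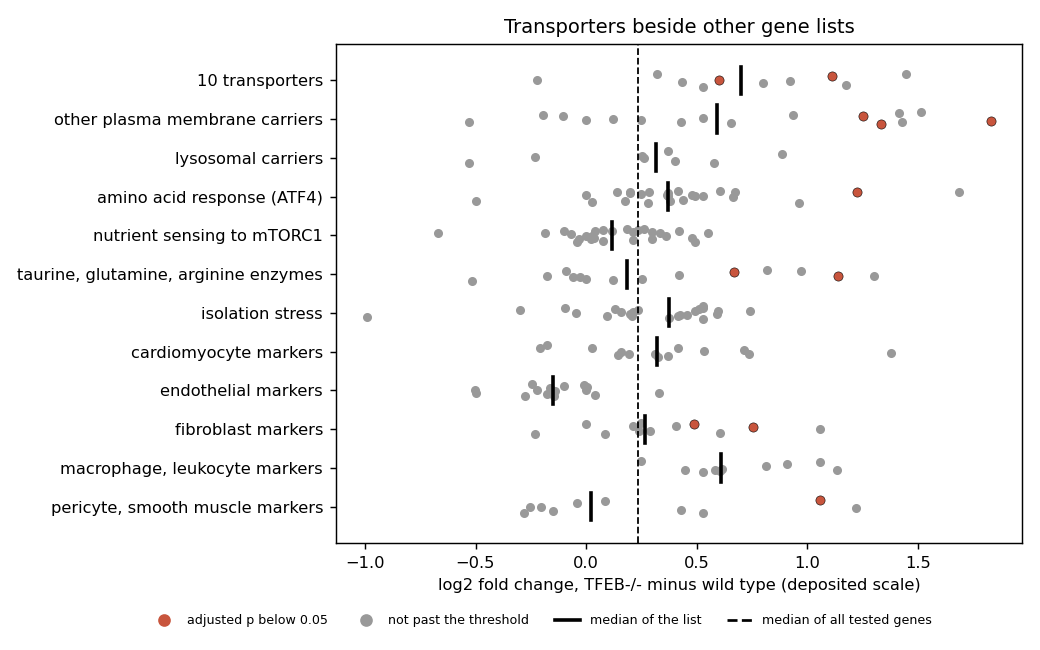
Log2 fold change of each tested gene on the deposited scale, TFEB-/- minus wild type, for the 10 transporters and 11 other lists, 1 row per list, with vertical jitter only to separate points. Red points passed an adjusted p of 0.05, bars are list medians and the dashed line is the median of all tested genes, 0.24. Medians right of the line are 0.70 for the 10 transporters, 0.61 for macrophage and leukocyte markers and 0.59 for the other plasma membrane carriers. Nearer to it on that side are the amino acid response and isolation stress (0.37 each), lysosomal carriers and cardiomyocyte markers (0.32 each) and fibroblast markers (0.27). Left of the line are the taurine, glutamine and arginine enzymes (0.19), nutrient sensing (0.12), pericyte and smooth muscle markers (0.02) and endothelial markers (−0.15). Glial and red blood cell markers are not plotted.

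Markers of other cell types were measured in the same libraries, and their part in the values above was not tested. In such samples fewer cells of a type and less RNA per cell cannot be told apart. The summed level of 12 fibroblast markers ran from 248 to 272 CPM in wild type and from 328 to 418 CPM in TFEB-/-. That sum is led by gelsolin (Gsn), which with Pdgfra was called higher, 2 of 12, on the deposited scale. Pdgfra was at 2 CPM throughout wild type and 3 CPM throughout TFEB-/-, where rounding alone allows a ratio of 1. With median-ratio scaling 0 of the 12 were called (adjusted p = 0.0898 for Gsn and 0.336 for Pdgfra), and the median on the deposited scale was 0.27, near that of all genes. The 14 macrophage and leukocyte markers summed to 23 to 33 and 45 to 56 CPM, with the defining markers Ptprc and Aif1 at 0 in every library and 0 of 10 tested called, although all 10 lay above the median of all genes (Lyz2 adjusted p = 0.0544, Csf1r 0.194). The 10 pericyte and smooth muscle markers summed to 385 to 474 and 568 to 579 CPM, 1 higher, the proteoglycan Cspg4 at 11 ± 1 and 23.7 ± 4.62 CPM. The call of Cspg4 was lost without wild type 1, 2 or 3 or TFEB-/- 2 or 3, and the list went both ways, with 5 positive and 5 negative log2 fold changes and a median of 0.02. The 16 endothelial markers summed to 588 to 689 and 532 to 652 CPM, with 0 called on the deposited scale, 2 lower at an unadjusted p below 0.05, a median of −0.15, and Fabp4 and Eng the most abundant. With median-ratio scaling the endothelial claudin Cldn5 was lower (adjusted p = 0.021). The 6 glial and neural markers summed to 3 to 4 and 7 to 15 CPM, led by Ncam1 and Mbp, with a median of 0.85 over the 4 tested, 0 called on the deposited scale and Ncam1 higher under median-ratio scaling (adjusted p = 0.0383). The 6 red blood cell markers, led by Hba-a1 and Hbb-bs, summed to 5 to 35 and 6 to 10 CPM. Of 14 cardiomyocyte markers 0 were called in limma, and 3 had an unadjusted p below 0.05.

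Stress of cell isolation, to which Slc38a2 can respond, was read from 23 immediate early and heat shock genes. Their sum was 4471 to 5844 CPM in wild type and 3607 to 8451 CPM in TFEB-/-, and limma called 0 of them, 1 having an unadjusted p below 0.05. Egr1 and Fos, the most abundant, were lowest of all libraries in TFEB-/- 2, at 585 and 526 CPM, where Slc38a2, at 121 CPM, was lowest too. In TFEB-/- 1 and 3 Egr1 was at 1205 and 1161 CPM and Slc38a2 at 157 and 194 CPM. In wild type 1, 2 and 3 Egr1 was at 910, 811 and 714 CPM and Slc38a2 at 260, 181 and 125 CPM. Both thus fell in the same order in wild type. Across the groups the orders differed, since Egr1 was highest in TFEB-/- 1, where Slc38a2 was below wild type 1 and 2. The part of this stress in the Slc38a2 values was not tested.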

How the data were processed

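RNA sequencing of 6 libraries, 3 wild type and 3 TFEB-/-, was used from a table in which the authors deposited 1 score per gene and library, read here, after the table's name, as CPM from kallisto rounded to whole numbers. Per the submitters' processing notes GRCm38, edgeR, DESeq2, StringTie, RSEM, Salmon, kallisto, HISAT2 and STAR were used, and which of these made the values is not given in the sources used here. Names turned into dates (26) were restored by Ensembl ID, 303 missing names were replaced by the ID, and values sharing a symbol were summed.

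Groups were compared with limma 3.58.1 (R 4.3.3) on log2(CPM + 0.5) in a model of genotype alone with trended eBayes, over the genes that reached 1 CPM in 3 or more libraries. Two-sided p-values were adjusted (Benjamini-Hochberg) over all 12437 of these. Count models were not used, since the values are rounded.

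The members, gene lists and tests were chosen with earlier results of these data known. Named genes are the 10 members, Tfeb, up to 2 higher and 2 lower genes past the threshold in each list (otherwise its 2 most abundant), and the 5 genes most like the member of smallest adjusted p among those averaging at least 5 CPM. Castor1, Castor2 and Samtor were not matched. Alternatives were other pseudocounts, filters, scalings, eBayes settings and weights, a replicate block, leaving out each library, and another transcript length.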

Additional observations from a re-analysis of the deposited data

How the results depend on the processing

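The count of transporter genes called higher (2) was 1 with CPM recomputed without mitochondrial transcripts, 0 with the replicate number as a block, 5 with array weights and 0 to 2 with 1 library left out, and the count called lower was 0 under all 16 alternatives. Over all genes, 487 were higher and 65 lower. Higher genes numbered 159 with the block, 780 with robust hyperparameters, 2241 with array weights and 248 to 516 with 1 library left out. Lower genes numbered 200 with median-ratio scaling, 188 without mitochondrial transcripts, 26 with the block, 338 with array weights and 52 to 91 with 1 library left out. With the block 0 other plasma membrane carriers, cargo enzymes, fibroblast markers and pericyte markers were higher, and with array weights 5 other carriers, 5 amino acid response genes and 6 cargo enzymes were. The log2 fold change of Slc38a2 ran from −0.49 to 0.038 with 1 library left out and changed sign without wild type 1. The causes were not tested. Samples with the same replicate number are not stated to share an animal or batch, and the deviations of libraries 1, 2 and 3 from their group means correlated across genes at 0.144, −0.0492 and 0.0883, so the numbers were not taken to pair the samples. For the members 136 of 159 comparisons with an alternative kept direction and side of the threshold, 14 lost a call, 8 gained one and 1 changed sign. Rounding limits Slc7a2, Slc1a5, Slc7a5 and Slc7a6 most. Slc7a2 was not tested at a filter of 5 CPM.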
